A study of Homo sapiens with 6 samples.

Results

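The genes described here encode subunits of the phosphoinositide 3-kinases (PI3K). They are the 9 genes PIK3CG, PIK3R6, PIK3R5, PIK3C2B, PIK3CD, PIK3R2, PIK3CA, PIK3CB and PIK3R1, of 14821 genes in the deposited table. They were chosen by name after their levels with and without ERG had been seen, because the gamma and delta forms differed in opposite directions. Their differences between the groups, with errors and the number past a threshold, are therefore a description of values that chose them, and no p-value is given for a member. All 9 were in the table and all 9 passed the filter on low counts (at least 1 CPM, the read count scaled to a common library size, in at least 3 of the 6 libraries).

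Messenger RNA was sequenced from F36P, a human cell line established from an erythroid leukaemia. In 3 libraries the cells carried the retroviral plasmid MSCV-PIG-AM-ERG, which expresses the ETS-type transcription factor ERG on top of whatever ERG the line makes itself. In the 3 vector libraries, labelled WT by genotype, they carried the empty plasmid MSCV-PIG. All cells had been transduced and kept in 1 µg/ml puromycin for 4 days before RNA was taken, so each library is an average over a selected pool. The labels call the replicates biological without naming cultures or transductions, so the p-values below measure only the spread between these samples.

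PI3Ks phosphorylate inositol lipids of the membrane and so recruit kinases such as AKT. The class I enzymes pair a catalytic subunit with a regulatory one. PIK3CA, PIK3CB and PIK3CD encode the catalytic subunits p110alpha, p110beta and p110delta, which bind p85-type regulatory subunits (PIK3R1, PIK3R2, PIK3R3) and are recruited by phosphorylated tyrosines of receptors and adaptors. PIK3CG encodes p110gamma, which pairs with p101 (PIK3R5) or p84 (PIK3R6) in place of a p85-type subunit. It answers G protein-coupled receptors through G protein beta-gamma subunits and RAS, inputs that are not confined to this form. The delta and gamma forms are found mainly in blood cells. PIK3C2B is a class II enzyme, which works without these regulatory subunits.

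Promoters of the catalytic pair and of the p85-type gene that moved most are shown first, because PIK3CG, PIK3CD and PIK3R2 carry the contrast between the gamma and the p85-bound forms. The sequences are RefSeq's (GRCh38.p14, plus strand, 250 bases before to 50 after an annotated start). Capitals mark matches on either strand to CGGAAG or AGGAAG, letters that ETS factors bind, and to AGATAA, letters that GATA factors bind. PIK3CG is shown at chr7:106865229-106865528, PIK3CD at the most upstream of its 3 listed starts, chr1:9651481-9651780, and PIK3R2 at chr19:18152913-18153212.
PIK3CG: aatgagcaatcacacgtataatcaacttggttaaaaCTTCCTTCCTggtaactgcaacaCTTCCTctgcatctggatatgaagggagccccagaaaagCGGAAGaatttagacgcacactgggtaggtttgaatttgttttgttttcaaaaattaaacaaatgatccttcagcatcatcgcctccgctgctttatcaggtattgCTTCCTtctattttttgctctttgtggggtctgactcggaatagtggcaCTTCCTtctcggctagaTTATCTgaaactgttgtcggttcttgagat
PIK3CD: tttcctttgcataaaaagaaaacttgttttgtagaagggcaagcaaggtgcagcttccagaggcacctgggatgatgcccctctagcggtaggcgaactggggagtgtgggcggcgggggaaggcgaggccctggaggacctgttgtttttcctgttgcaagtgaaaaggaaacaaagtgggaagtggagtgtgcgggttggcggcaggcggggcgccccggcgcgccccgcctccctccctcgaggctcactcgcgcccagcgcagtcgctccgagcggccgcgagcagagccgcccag
PIK3R2: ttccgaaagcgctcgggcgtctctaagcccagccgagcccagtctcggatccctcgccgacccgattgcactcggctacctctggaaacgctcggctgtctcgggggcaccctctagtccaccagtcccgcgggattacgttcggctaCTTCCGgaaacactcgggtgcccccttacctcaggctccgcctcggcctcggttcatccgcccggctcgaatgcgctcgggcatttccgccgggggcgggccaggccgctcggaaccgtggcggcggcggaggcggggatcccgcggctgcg

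The PIK3CG window held 6 matches to the ETS letters, 2 of which overlap by a pair of bases, and 1 to the GATA letters. Their first bases lie at -214, -210, -191, -152, -46 and 4 (ETS) and 21 (GATA), counted from RefSeq's annotated start as base 1. GENCODE's start of PIK3CG, at 106865278, lies upstream of RefSeq's within this window. The matches from -191 on lie after GENCODE's start, inside the gene by that annotation. The PIK3CD window shown held 0 of either kind, as did the window at the next of its listed starts, while the third, chr1:9691217-9691516, held 0 ETS matches and 1 GATA match at -2, and the PIK3R2 window held 1 ETS match at -102. Of 35116 promoter windows of this length in the table, 46.9% held at least 1 of the ETS matches, 4.73% at least 3 and 0.0883% at least 6. AGATAA was in 10.3% of them. The count of 6 was looked up after it had been seen in PIK3CG. Of the other listed windows, that of PIK3C2B held 0 ETS matches and that of PIK3CA 1, the most upstream ones of PIK3R5 and PIK3R1 held 1 and 3, and the most upstream one of PIK3CB 0. Further starts held 1 ETS match for PIK3CB, 2 ETS matches and 1 GATA match for PIK3R5, and 0 ETS matches and 1 GATA match over 3 windows for PIK3R1. RefSeq's table gave a window for 8 of the 9 genes, all but PIK3R6. These are matches of letters, not binding sites, and no binding was measured here.

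Several facts of the libraries bear on every value below. Totals ranged from 12421407 to 14803031 reads in ERG and from 10257141 to 13615797 in vector libraries. ERG replicates 1 and 2 differed by 2.2 in chi-square per degree of freedom, where all other pairs differed by 21.6 to 86.9. They were counted as separate libraries although they lie far closer together than the rest, and whether they are independent is not known. The adjusted p-values below rest on counting them separately. With them summed, edgeR called 0 of 14203 tested genes (1277 at an unadjusted p under 0.05), against 313 as reported. The libraries also fell into sets that cut across the groups, ERG replicates 1 and 2 with vector replicate 1 (set A) and ERG replicate 3 with vector replicates 2 and 3 (set B), a division taken from an earlier analysis of these data. ERG itself had 97.4, 103 and 104 CPM where it was introduced, against 28.1, 14.6 and 22.4 CPM with vector, of which replicate 1 was the highest. All 14 listed erythroid marker genes were in the table. Their levels summed to between 3981 and 6597 CPM with ERG and between 11071 and 17730 CPM with vector, and 5 were lower and 0 higher by edgeR. Of 14 megakaryocyte and platelet markers 12 were in the table, all but PF4 and VWF. These summed to between 1644 and 2855 CPM with ERG and between 837 and 1575 CPM with vector, with 6 higher and 0 lower. The gamma and delta forms moved together with these lists, whose part in the differences was not tested. Of 14 lymphocyte markers 6 were in the table (sums 391 to 410 and 323 to 428 CPM with ERG and with vector), and CD3D, CD3E and MS4A1 were among those not analysed here. Granulocyte and monocyte markers (5 of 12 in the table, 0 called) summed to 294 to 511 and 185 to 394 CPM with ERG and with vector, and stromal, epithelial and endothelial ones (7 of 12, 1 higher and 1 lower) to 129 to 184 and 87.8 to 127 CPM. In such bulk samples, fewer cells of a type and less RNA per cell cannot be told apart.

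Between the groups, PIK3CG, its partner PIK3R6 and the class II gene PIK3C2B were higher with ERG, and PIK3CD and PIK3R2 were lower. In each of these 5 genes the 3 ERG libraries lay wholly on one side of the 3 vector libraries. Of all 14203 tested genes, 21.9% had groups that did not overlap, 12.3% with ERG higher and 9.54% with ERG lower. By edgeR's quasi-likelihood test over all genes (adjusted p under 0.05), 3 members counted as higher and 2 as lower, beside 2.2% of all tested genes in either direction, 1.47% higher and 0.732% lower. The members were picked on this contrast, so nothing is read from their count. By edgeR, 0 members passed without ERG replicate 1, without ERG replicate 2, without vector replicate 2 or without vector replicate 3, or with ERG replicates 1 and 2 summed. At an unadjusted p under 0.05 the count of members in these fits was 5, 5, 6, 5 and 5. Over all 14203 tested genes it was 1278, 1256, 1655, 1820 and 1277. Without vector replicate 1, 4 passed and PIK3C2B did not.

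**Figure D1:**
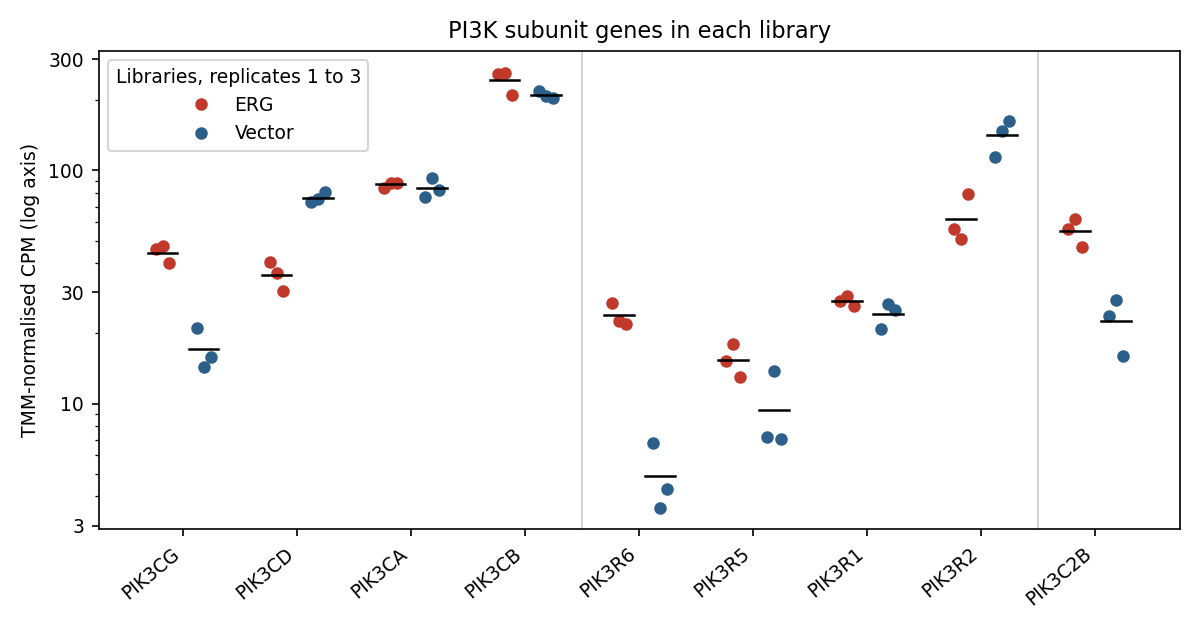
Level of each PI3K subunit gene in each library (TMM-normalised CPM, log axis), ERG libraries in red left of vector libraries in blue, replicates 1 to 3 from left to right within a group; lines are means of 3. Catalytic class I genes are on the left, regulatory ones in the middle and class II on the right. The ERG points of PIK3CG lie between 40.04 and 47.3 CPM, all above the vector points, and those of PIK3CD between 30.3 and 40.4 CPM, all below them.

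PIK3CG was the class I catalytic gene whose ERG libraries all lay above its vector libraries. It occupies 106865278 to 106907145 of chromosome 7 (hg38, GENCODE release 29) and had 46.0, 47.3 and 40.04 CPM in ERG libraries 1 to 3, against 21.1, 14.3 and 15.8 CPM in vector libraries 1 to 3. Even the lowest ERG library stood well above vector replicate 1, the highest of its group. The mean was 44.5 ± 3.90 CPM with ERG and 17.1 ± 3.57 CPM with vector (SD, n = 3 each), a log2 difference of 1.38 (SE 0.19, 95% interval 0.95 to 1.81), or 2.60-fold higher.

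PIK3CD, on chromosome 1 from 9651732 to 9729114, went the other way. Its levels were 40.4, 36.4 and 30.3 CPM with ERG, against 73.3, 75.3 and 81.1 CPM with vector. The vector libraries lay close together, and each was far above the highest ERG library. The log2 difference was -1.10 (SE 0.15, 95% interval -1.44 to -0.76), with means of 35.7 ± 5.07 and 76.5 ± 4.04 CPM in ERG and vector libraries. The sources used here do not give whether reads were assigned by strand, and PIK3CD overlaps genes on the other strand. The antisense gene PIK3CD-AS2, inside it, had 48, 78 and 38 reads in ERG and 49, 44 and 32 in vector libraries, where PIK3CD itself had 447 to 531 and 829 to 989 reads. CLSTN1, which overlaps the far end of PIK3CD, was at 218 ± 14.8 CPM with ERG and 144 ± 17.9 CPM with vector, opposite in direction to PIK3CD.

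PIK3CB and PIK3CA, the widely expressed forms, differed little. PIK3CB, the most abundant of the family, had 258, 263 and 212 CPM with ERG, against 219, 209 and 204 CPM with vector. The groups overlapped, since ERG replicate 3 lay below vector replicate 1, and the log2 difference was 0.21 (95% interval -0.11 to 0.54). PIK3CA was at 84.3, 88.7 and 88.8 CPM with ERG and 77.1, 92.9 and 82.1 CPM with vector, with vector replicate 2 above all ERG libraries (log2 0.05, 95% interval -0.24 to 0.34). Without vector replicate 1 the log2 difference of PIK3CA changed sign (-0.0055). PIK3CA has a near-identical partial copy elsewhere in the genome, so its reads are uncertain to that extent.

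Set against each other within a library, the gamma and delta genes changed places. PIK3CG had 1.14, 1.30 and 1.32 reads per PIK3CD read in ERG libraries 1 to 3, against 0.288, 0.190 and 0.195 in vector libraries 1 to 3. This ratio does not depend on scaling between libraries. It exceeded 1 in each ERG library and was under 0.3 in each vector library. As a share of the reads of the 4 class I catalytic genes, PIK3CG took 10.8% ± 0.0679 with ERG and 4.40% ± 0.906 with vector, and PIK3CD 8.65% ± 0.674 and 19.7% ± 1.28 (SD, n = 3 each). Wilson 95% intervals of the PIK3CG share in single libraries all lay within 9.94% to 11.7% with ERG and within 3.17% to 6.11% with vector, and cover counting error only. The PIK3CB share was 59.2% ± 1.86 with ERG and 54.3% ± 1.59 with vector, and the PIK3CA share 21.3% ± 2.30 and 21.6% ± 2.00. The sum of the 4 genes was 412 ± 35.6 CPM with ERG and 389 ± 4.75 CPM with vector, a gap smaller than the spread of the ERG libraries.

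**Figure D2:**
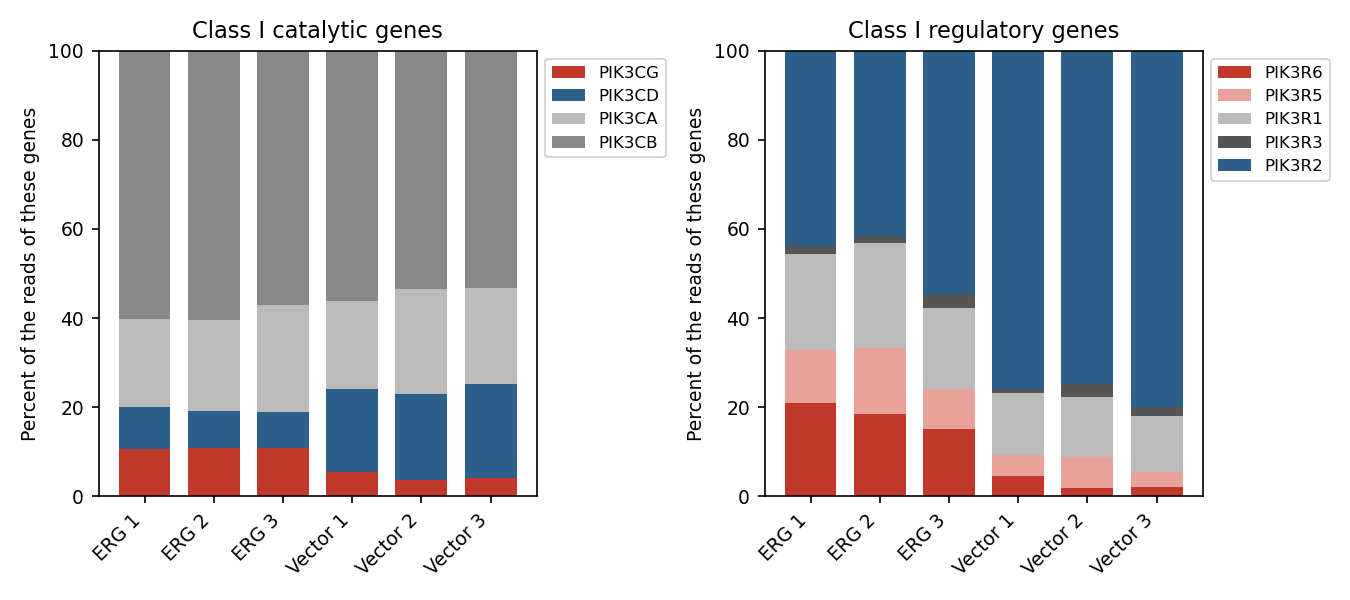
Percent of reads taken by each class I catalytic gene (left, 4 genes) and each class I regulatory gene (right, 5 genes) in each library, stacked to 100, ERG libraries left of vector libraries. The PIK3CG part is 10.7% to 10.9% in ERG and 3.65% to 5.41% in vector libraries, and the PIK3R2 part is 41.5% to 54.5% in ERG and 74.8% to 79.8% in vector libraries.

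The partners of p110gamma differed from each other. PIK3R6, which encodes p84, had 27.0, 22.6 and 22.1 CPM in ERG libraries, against 6.77, 3.58 and 4.30 CPM in vector libraries. Its lowest ERG library was more than 3-fold above the highest vector library, and its log2 difference of 2.29 (SE 0.27, 95% interval 1.66 to 2.92) had the largest size among the 9 genes. PIK3R5, which encodes p101, had 15.2, 18.1 and 13.03 CPM with ERG, against 7.21, 13.9 and 7.04 CPM with vector. Vector replicate 2 lay above ERG replicate 3, so the groups overlapped. Its log2 difference was 0.72 (SE 0.31, 95% interval 0.00 to 1.43), 1.12 without vector replicate 2 and 0.55 without vector replicate 3.

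These partners are neighbours. On chromosome 17, on the minus strand, PIK3R6 runs from 8802723 to 8867677 and PIK3R5 from 8878911 to 8965712, with 11233 bases and 0 annotated genes between them. In reads, PIK3R6 stood at 1.77, 1.25 and 1.69 per PIK3R5 read in ERG libraries, against 0.939, 0.258 and 0.611 in vector libraries. These ratios are not corrected for length. Per kilobase, PIK3R6 exceeded PIK3R5 in each ERG library and in vector replicate 1 (6.38% and 4.54% of the regulatory genes' reads per kilobase), and was below it in vector replicates 2 and 3.

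The p85-type genes also differed from each other. PIK3R2, which encodes p85beta (chromosome 19, 18153118 to 18170540), had 56.2, 50.8 and 79.1 CPM with ERG, against 114, 148 and 163 CPM with vector. ERG replicate 3 was the highest of its group but remained below vector replicate 1, the lowest of the vector libraries. The log2 difference was -1.19 (SE 0.21, 95% interval -1.69 to -0.70). GENCODE lists a further coding gene, AC007192.1, over PIK3R2 on the same strand, so reads of their shared sequence could have been assigned to either. PIK3R1, which encodes p85alpha, was at 27.7, 28.98 and 26.2 CPM with ERG and 20.9, 26.8 and 25.3 CPM with vector (log2 0.18, 95% interval -0.18 to 0.54), with vector replicate 2 inside the ERG range. Reads of PIK3R2 per read of PIK3R1 were 2.03, 1.75 and 3.02 in ERG and 5.49, 5.53 and 6.44 in vector libraries. Among the reads of 5 regulatory genes (with PIK3R3), PIK3R2 took 46.6% ± 6.96 with ERG and 76.8% ± 2.64 with vector, and PIK3R6 18.2% ± 2.92 and 2.80% ± 1.47. Their sum was 132 ± 11.7 CPM with ERG and 184 ± 29.1 CPM with vector.

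PIK3C2B, the class II gene (chromosome 1, 204422628 to 204494724), had 56.1, 62.1 and 47.2 CPM with ERG, against 23.8, 27.7 and 16.0 CPM with vector. All ERG libraries lay above all vector libraries. The log2 difference was 1.29 (SE 0.22, 95% interval 0.77 to 1.81), a 2.44-fold higher level with ERG.

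Levels of different genes were compared per kilobase of exon (RPKM, over the union of exons of coding transcripts in GENCODE's basic set). With ERG the order from the top was PIK3CB at 40.8, PIK3R2 at 15.3, PIK3CA at 9.51, PIK3CG at 8.05, PIK3R6 at 7.86, PIK3C2B at 7.17, PIK3CD at 6.29, PIK3R1 at 3.56 and PIK3R5 at 3.40 RPKM. The ranges of neighbours overlapped from PIK3CG down to PIK3CD and between PIK3R1 and PIK3R5. With vector it was PIK3CB at 35.2, PIK3R2 at 34.9, PIK3CD at 13.5, PIK3CA at 9.16, PIK3R1 at 3.13, PIK3CG at 3.09, PIK3C2B at 2.93, PIK3R5 at 2.06 and PIK3R6 at 1.61 RPKM. Here PIK3CB and PIK3R2 overlapped, as did each neighbouring pair from PIK3R1 down. PIK3CD thus ranked 7 with ERG and 3 with vector, and PIK3R6 ranked 5 with ERG and 9 with vector. With the longest transcript as length the order was the same in both groups.

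Within each library set the 5 differences had the same sign as in the whole comparison, as their groups do not overlap. In log2 CPM with a prior count of 2, ERG minus vector was 1.14 in set A and 1.40 in set B for PIK3CG, 1.84 and 2.44 for PIK3R6, and 1.30 and 1.16 for PIK3C2B. For PIK3CD it was -0.93 and -1.36, and for PIK3R2 -1.10 and -0.97. PIK3R5 differed between the sets, at 1.19 in set A and 0.39 in set B, and so did PIK3R1 at 0.44 and 0.01. The vector libraries of set B were themselves apart for PIK3R5, at 13.9 CPM in replicate 2 and 7.04 CPM in replicate 3. Vector replicate 1, in set A, had 7.21 CPM of PIK3R5. Each set holds a single library of one group, so the difference between sets was not tested. Among the vector libraries, replicate 1 had the most ERG, PIK3CG and PIK3R6 and the least PIK3R2 and PIK3CD. Its PIK3CD level was 73.3 CPM, against 75.3 CPM in vector replicate 2. PIK3C2B was highest in vector replicate 2 (27.7 CPM), which had the least ERG. Vector replicate 1 is also the only vector library of set A, so its ERG level and its set cannot be told apart. Among the ERG libraries, replicate 3 had the most ERG (104 CPM, against 103 CPM in replicate 2). It had the least PIK3CG (40.04 CPM), PIK3R6 (22.1 CPM) and PIK3CD (30.3 CPM) and the most PIK3R2 (79.1 CPM).

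**Figure D3:**
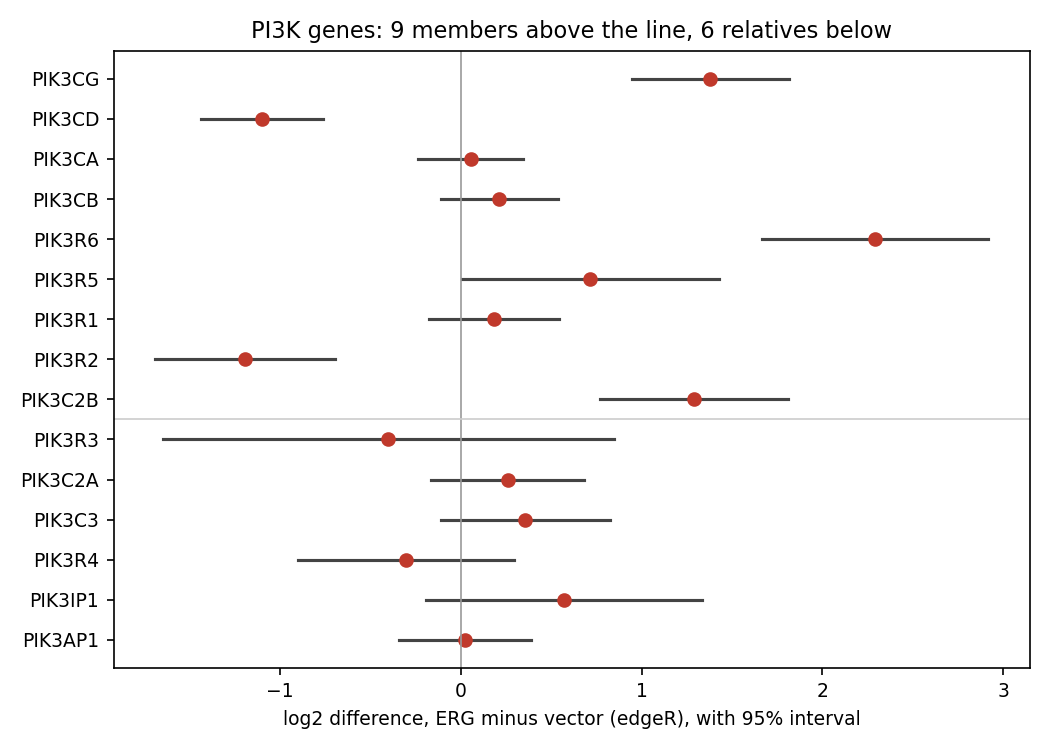
Log2 difference between ERG and vector libraries (3 each) from edgeR, with its 95% interval, for the 9 subunit genes and, below the line, 6 relatives. PIK3CG, PIK3R6 and PIK3C2B lie to the right of 0, PIK3CD and PIK3R2 to the left, and the intervals of the 6 relatives all include 0.

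The remaining PI3K genes were set beside them from a list of 12, of which 11 were tested and all but PIK3C2G were in the table. By edgeR 0 of the 11 passed, and 0 had an unadjusted p under 0.05, with 0 also by DESeq2 and limma-voom (median log2 difference -0.01, as over all genes). PIK3AP1, an adaptor that brings PI3K to receptors, was at 61.1 ± 1.27 CPM with ERG and 60.0 ± 10.9 CPM with vector (log2 0.02, 95% interval -0.34 to 0.39). PIK3C2A, the other expressed class II gene, was at 56.1 ± 3.97 and 46.9 ± 10.1 CPM (log2 0.26, 95% interval -0.16 to 0.68). PIK3C3 and PIK3R4, the catalytic and scaffold subunits of the class III enzyme, had log2 differences of 0.36 and -0.30. PIK3R3, which encodes p55gamma, had only 27 to 68 reads in ERG and 18 to 73 in vector libraries, so its interval was wide (-1.65 to 0.85). PIK3IP1, a negative regulator of PI3K, was at 6.75 ± 1.79 and 4.53 ± 1.41 CPM (log2 0.57, 95% interval -0.19 to 1.34). PIK3C3, PIK3R4, PIK3R3 and PIK3IP1 were named outside the rule in the methods, after their values were known.

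Upstream and downstream of the kinases, 182 tested genes in 8 lists gave 4 that rose and 4 that fell by edgeR (4.4%, beside 2.2% of all tested genes). Their median log2 difference was 0.11, against -0.01 over all genes. At an unadjusted p under 0.05, 32 were higher and 14 lower, beside 1314 and 946 of all 14203 tested genes. DESeq2 called 13 higher and 9 lower, beside 596 and 410 of all tested genes. With limma-voom it was 1 and 3, beside 177 and 92 of all tested genes. Among 28 G protein and RAS genes, which feed the gamma form but not it alone, 6 were higher and 3 lower at an unadjusted p under 0.05 by edgeR. Of the 28 genes, 0 passed by edgeR, 5 by DESeq2 and 0 by limma-voom. GNAS and GNB1, the most abundant of them, were at 751 ± 32.0 and 452 ± 13.8 CPM with ERG and at 762 ± 78.9 and 387 ± 46.6 CPM with vector. Among 23 adaptors, which bring the p85-bound forms to phosphotyrosine, 1 rose and 0 fell by edgeR. The counts were 6 and 1 by edgeR at an unadjusted p under 0.05, 3 and 0 by DESeq2 and 0 and 0 by limma-voom. The gene called by edgeR was LAT2, a membrane adaptor of mast and B cells, at 22.5 ± 9.38 CPM with ERG and 5.71 ± 1.52 CPM with vector (log2 1.97, SE 0.38, edgeR adjusted p = 0.0491). ERG replicate 3 had 11.7 CPM of LAT2, against 28.8 and 26.9 CPM in ERG replicates 1 and 2. LAT2 no longer passed with RLE or upper-quartile factors, a stricter filter or limma-voom. GAB2 and IRS2, adaptors of cytokine and insulin receptors named outside the rule, had log2 differences of 0.31 and 0.17 without passing, GAB2 at 207 ± 65.8 and 167 ± 79.7 CPM.

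Of 33 tested genes of the AKT and mTOR list, 3 rose and 0 fell by edgeR (4 and 2 at an unadjusted p under 0.05). The counts were 3 and 2 by DESeq2 and 1 and 0 by limma-voom, while the list's median was -0.07. PRR5L, a protein bound to mTOR complex 2, was 3.97-fold higher at 16.5 ± 1.31 CPM with ERG and 4.17 ± 1.48 CPM with vector (log2 1.99, SE 0.29, edgeR adjusted p = 0.0227). TRIB1, a pseudokinase, rose 2.35-fold (log2 1.23, edgeR adjusted p = 0.0422). DEPTOR, an inhibitor within the mTOR complexes, rose 2.13-fold, at 79.6 ± 17.8 and 37.4 ± 7.39 CPM (edgeR adjusted p = 0.0487). With limma-voom the log2 difference of TRIB1 (adjusted p = 0.0585) and the log2 difference of DEPTOR (adjusted p = 0.0507) did not pass. AKT1, AKT2 and PDPK1, the kinases that PI3K lipids recruit, were named outside the rule and did not pass, with log2 differences of -0.09, -0.30 and -0.04 (95% intervals -0.46 to 0.27, -0.63 to 0.03 and -0.35 to 0.27). The sign of AKT1 flipped with the library set as a term, and that of PDPK1 with library totals alone, with upper-quartile factors, with the set term and without vector replicate 2.

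Of 26 phosphoinositide phosphatases, 0 rose and 1 fell by edgeR (3 and 1 at an unadjusted p under 0.05). The counts were 1 and 1 by DESeq2 and 0 and 0 by limma-voom. INPP4A, which acts on a lipid made from PIP3, was at 30.7 ± 3.91 CPM with ERG and 54.6 ± 7.05 CPM with vector (log2 -0.83, SE 0.16, edgeR adjusted p = 0.0470). The log2 difference of INPP4A did not pass with library totals alone (edgeR adjusted p = 0.0543) or with limma-voom (adjusted p = 0.0506). INPP5D, the blood cell phosphatase SHIP1, was named outside the rule. It was at 195 ± 24.7 CPM with ERG and 226 ± 9.38 CPM with vector, without passing (edgeR adjusted p = 0.501). Among 11 other phosphoinositide kinases 0 passed by edgeR (2 at an unadjusted p under 0.05), by DESeq2 and by limma-voom. PIP4K2A and PI4KA, the most abundant, had log2 differences of -0.27 and 0.11.

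Of 29 other effectors that bind PIP3 or act with it, 0 rose and 1 fell by edgeR. The counts were 7 and 4 by edgeR at an unadjusted p under 0.05, 3 and 2 by DESeq2 and 0 and 1 by limma-voom. CYTH3, an exchange factor for ARF proteins with a PIP3-binding domain, was at 12.7 ± 1.39 CPM with ERG and 26.4 ± 4.10 CPM with vector (log2 -1.05, SE 0.18, edgeR adjusted p = 0.0365). BTK, a kinase that binds PIP3, was named outside the rule. It was at 523 ± 92.7 and 272 ± 86.7 CPM without passing (log2 0.94, edgeR adjusted p = 0.123). The log2 difference of BTK did pass with DESeq2 (adjusted p = 0.0148), and in edgeR with the set term (0.00226), with a replicate block (0.0285) or without vector replicate 1 (0.0372). TEC, a kinase of the same family and also outside the rule, had a log2 difference of 0.05, which turned negative with the set term and with ERG replicates 1 and 2 summed. Of 23 FOXO factors and FOXO target genes 0 rose and 2 fell by edgeR, by DESeq2 and by limma-voom. At an unadjusted p under 0.05 by edgeR 6 were higher and 2 lower, and the list's median was 0.41. FOXO6 was at 3.27 ± 1.28 CPM with ERG and 18.5 ± 6.83 CPM with vector (log2 -2.49, SE 0.39, edgeR adjusted p = 0.0260). CAT, the catalase gene, fell by 0.71 on the log2 scale (edgeR adjusted p = 0.0365). FOXO3, named outside the rule, stood at 0.34 on the log2 scale (edgeR adjusted p = 0.264). Of these 182 genes, 0 passed by edgeR without ERG replicate 1, without ERG replicate 2, without vector replicate 2 or without vector replicate 3. At an unadjusted p under 0.05 the counts were 29, 26, 30 and 33, beside 1278, 1256, 1655 and 1820 of all 14203 tested genes. Without ERG replicate 3, 10 passed and DEPTOR and CYTH3 did not. Without vector replicate 1, 12 passed and LAT2, TRIB1, DEPTOR and CYTH3 did not.

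**Figure D4:**
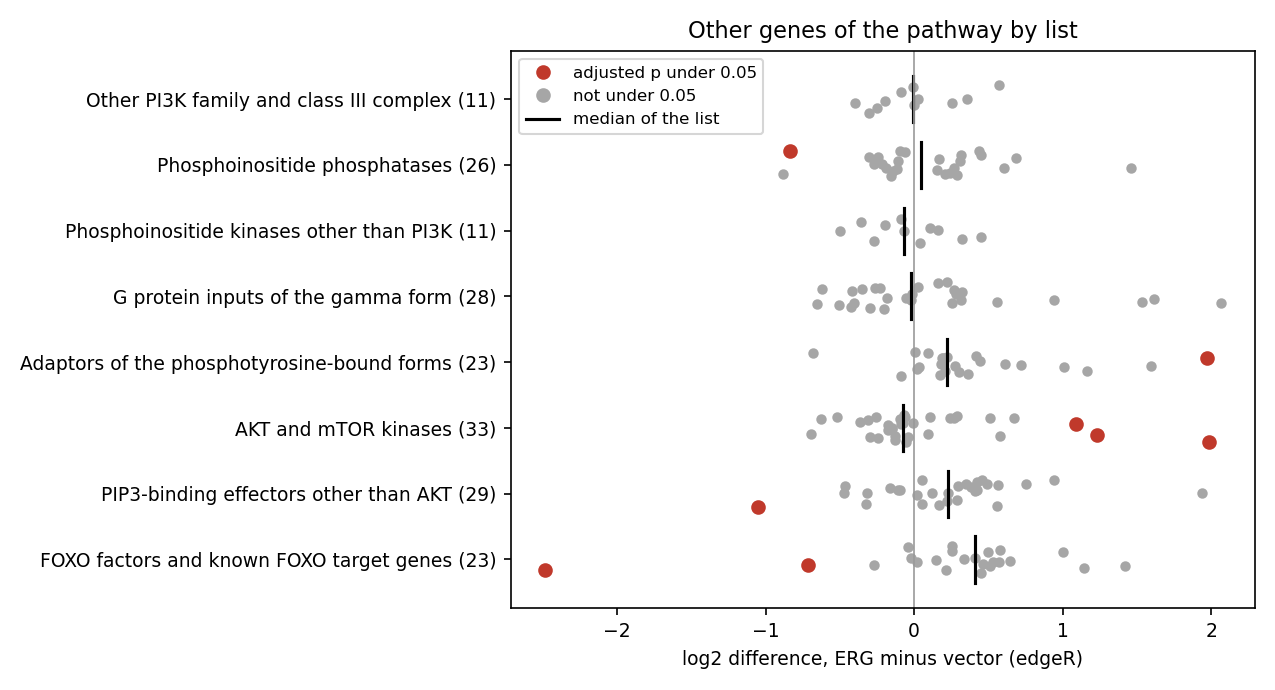
Log2 difference between ERG and vector libraries (3 each) for every tested gene of the 8 lists of other pathway genes, with the number tested in brackets; red points had an edgeR adjusted p under 0.05 and black bars are list medians. The 8 red points (4 on each side) are spread over 5 lists, and the list medians lie between -0.07 and 0.41.

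The genes whose pattern was most like that of PIK3CG and of PIK3CD were found among 11259 named coding genes. The measure was the root mean square distance, over the 6 libraries, between log2 CPM values centred on each gene's mean. Nearest to PIK3CG were CACNA2D3 (0.0565), KCNK6 (0.0698), GFI1 (0.0772), ATP1B1 (0.114) and NTS (0.114), which encode a calcium channel subunit, a potassium channel, a transcriptional repressor, a sodium pump subunit and neurotensin. GFI1, for example, was at 53.1, 53.9 and 48.5 CPM with ERG and 25.3, 17.0 and 21.3 CPM with vector. Of the other members PIK3C2B was nearest to PIK3CG (0.293), ahead of its partner PIK3R6 (0.475). This distance includes the size of the difference between the groups. The log2 difference was 2.29 for PIK3R6, 1.38 for PIK3CG and 1.29 for PIK3C2B. In order of libraries, PIK3R6 matched PIK3CG among the vector libraries and PIK3C2B did not. Among the ERG libraries PIK3C2B matched PIK3CG and PIK3R6 did not. Among the nearest to PIK3CD were ACKR1 (0.0649), TAGLN (0.123), LRP5L (0.127) and AQP3 (0.130). TAGLN had only 16 to 38 reads a library, so its distance is imprecise. ACKR1, the Duffy blood group receptor, was at 8.29, 7.74 and 6.58 CPM with ERG and 14.96, 16.0 and 15.5 CPM with vector. AQP3, a water and glycerol channel, was at 272 ± 19.7 and 512 ± 22.5 CPM in ERG and vector libraries. PIK3R2 was the member nearest to PIK3CD (0.325).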

How the data were processed

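The 6 libraries of F36P messenger RNA were 3 with ERG and 3 with empty vector. Per the labels' protocols, messenger RNA was selected by its poly(A) tail. The submitters' processing notes name the build hg38 and the tool edgeR 3.32.1. The aligner, counting tool and strand setting are not given in the sources used here. The authors deposited whole-number read counts, although the table is named for CPM. The control columns were assigned to vector as the only other group.

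Counts were fitted with edgeR 4.0.16 (R 4.3.3), TMM factors and the quasi-likelihood test, two-sided, over 14203 genes that reached 1 CPM in 3 or more libraries (618 left out), with Benjamini-Hochberg adjustment at 0.05. The SE is the size of the log2 difference divided by the square root of F. CPM values are TMM-normalised, RPKM divides them by exon length, and SD is over 3 libraries. The script was tested on simulated data. Alternatives were RLE, upper-quartile and no factors, other filters, DESeq2 1.42.0, limma-voom (limma 3.58.1), a replicate block, a library set term, ERG replicates 1 and 2 summed, and each library left out. The members, lists and library sets were chosen with earlier results of these data known. The rule named ERG, all members, up to 4 genes past the threshold per list (or the 2 most abundant where 0 passed) and 5 genes nearest to PIK3CG and to PIK3CD, and 1 gene that it chose is not reported here. Coordinates are from GENCODE release 29 and promoters from RefSeq. Low totals of reads limit the precision of genes such as PIK3R3. An exact permutation test of 3 against 3 libraries cannot go below p = 0.1 and was not used.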

Additional observations from a re-analysis of the deposited data

How the results depend on the processing

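All 5 members that passed kept their sign in every alternative run. As their groups do not overlap, leaving out or summing libraries could not reverse it, so nothing is read from this. With 1 library left out the log2 difference was 1.27 to 1.56 for PIK3CG, 2.10 to 2.60 for PIK3R6 and 1.10 to 1.47 for PIK3C2B. It was -1.20 to -0.99 for PIK3CD and -1.40 to -1.07 for PIK3R2. Over all genes, edgeR called 209 higher and 104 lower. DESeq2 called 596 and 410, the library set term 1022 and 847, the replicate block 582 and 323, and ERG replicates 1 and 2 summed 0 and 0 (1277 at an unadjusted p under 0.05). With 1 library left out the counts were 0 to 309 and 0 to 139. Pathway genes, 4 and 4 as reported, were 13 and 9 with DESeq2, 30 and 14 with the set term, 15 and 7 with the replicate block, 0 and 0 with the replicates summed (28 at an unadjusted p under 0.05), 1 and 3 with limma-voom, and 0 to 8 and 0 to 4 with 1 library left out. Members were 3 and 2 in each of these fits except 0 and 0 with the replicates summed, and 0 to 3 and 0 to 2 with 1 library left out. Which library was left out mattered. Without ERG replicate 3 or without vector replicate 1, edgeR called 441 genes in each fit. Without ERG replicate 1, ERG replicate 2, vector replicate 2 and vector replicate 3 it called 0, 0, 19 and 51. The cause of these differences was not tested. Deviations from group means correlated across genes at 0.63, -0.28 and 0.59 for replicate numbers 1, 2 and 3. Libraries numbered 1 share a set, as do those numbered 3, while those numbered 2 do not. These values therefore cannot tell pairing by replicate number apart from the library sets.

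Per kilobase, the share of PIK3CG was 12.5% with ERG and 5.07% with vector, and that of PIK3CD 9.72% with ERG and 22.2% with vector. Some signs reversed, among them those of PIK3R3 (log2 difference -0.40 as reported) and IRS2 (0.17 as reported). The log2 difference of GNAS was 0.029, 0.0031 and 0.013 with library totals alone, the stricter filter and upper-quartile factors, and -0.084 to 0.063 with 1 library left out. With the set term the log2 difference of PIK3R3 was 0.086, the log2 difference of PIK3CD-AS2 -0.11, the log2 difference of AKT1 0.013, the log2 difference of PDPK1 0.0022, the log2 difference of IRS2 -0.039 and the log2 difference of TEC -0.033. PDPK1 was at 0.016 with library totals alone and 0.0010 with upper-quartile factors, and TEC at -0.027 with the replicates summed. With 1 library left out, the log2 difference of PIK3CA ran from -0.0055 to 0.13, the log2 difference of PIK3AP1 from -0.091 to 0.17, PIK3CD-AS2 from -0.18 to 0.34, PDPK1 from -0.12 to 0.069 and TEC from -0.049 to 0.21. Depth limits PIK3R3 and PIK3CD-AS2, with 18 to 78 reads a library.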
